A study of Mus musculus with 8 samples.

Results

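The breakdown of the branched-chain amino acids leucine, isoleucine and valine was examined through 10 genes in brown adipose tissue (BAT). The genes were chosen by name for their place in the pathway: the aminotransferase gene Bcat2, the dehydrogenase complex genes Bckdha, Bckdhb and Dbt, the kinase and phosphatase genes Bckdk and Ppm1k, and the leucine branch genes Ivd, Mccc1, Mccc2 and Auh. All 10 are among the 44674 genes of the count table, and all 10 passed the filter on low counts that left 14489 genes to test. BAT came from 4 control mice (labelled CTRL, littermates with the floxed receptor gene, Ox1R fl/fl, and no Cre) and 4 Ox1RΔSERT mice (labelled Sert-Ox1R, Ox1R fl/fl with Sert-Cre tg/wt). All 8 were male C57BL/6N mice that received a high-fat diet (HFD) from 4 to 18 weeks of age, and each mouse gave 1 library. Cre is driven by Slc6a4, the serotonin transporter gene, and removes orexin receptor type 1 from the cells that use it, mainly serotonergic neurons, so BAT itself is not the tissue targeted. The tissue was dissected between 14 and 16 h, at the end of a hyperinsulinemic-euglycemic clamp, in which insulin is infused and glucose is given to hold blood glucose steady, and the comparison asks how BAT of obese mice that lack the receptor differs in gene expression from that of control mice in this state.

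Branched-chain amino acids lose their amino group to a mitochondrial aminotransferase, and the resulting keto acids are then decarboxylated by the branched-chain keto acid dehydrogenase complex, the committed step of the pathway. A kinase switches the complex off by phosphorylating its E1α subunit and a phosphatase switches it on again. The carbon of leucine then ends in acetyl-CoA and acetoacetate, and part of that of valine and isoleucine in succinyl-CoA. Brown fat is known to take up and oxidize these amino acids when it makes heat, with the carrier Slc25a44 bringing them into mitochondria.

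The libraries held between 35852667 and 50063257 estimated counts. The gene for the deleted receptor, Hcrtr1, gave 0, 5, 2 and 3 estimated counts in the control libraries and 0, 3, 5 and 4 in the Ox1RΔSERT libraries, so the deletion could not be checked in this tissue. Below, control values are given in the order of mice 10684, 11253, 11560 and 11563, and Ox1RΔSERT values in the order of mice 11243, 11601, 11613 and 11708. Normalized values are CPM, counts scaled to library size, with TMM scaling, which sets library sizes so that most genes do not shift. TPM, an abundance scaled to transcript length and library, is used where 1 gene is set against another.

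Ox1RΔSERT mice 11601 and 11708 stood apart from the other 6. They lay at 59.3 and 77 on the first principal component, which held 53.6% of the variance, and the other libraries lay between −44.3 and 7.13. The 8 brown adipocyte markers, of which Ucp1 was the most abundant, summed to 6520, 7520, 8620 and 8370 normalized units in control mice and to 6720, 4470, 6200 and 4290 in Ox1RΔSERT mice, and none of them was at 0 in any library. The 8 leukocyte and macrophage markers, led by Lyz2, summed to 911 in mouse 11601 and 716 in mouse 11708, against 114 to 254 in the other 6 mice. The 4 fibroblast markers, led by Col3a1, summed to 5280 and 2460 in these mice, against 354 to 964. In bulk tissue, fewer cells of a type and less RNA per cell cannot be told apart. Results on the pathway are therefore also given without mice 11601 and 11708, which were known from earlier results of these data to stand apart. For the lists of other genes this alternative was added after the data were seen.

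**Figure D1:**
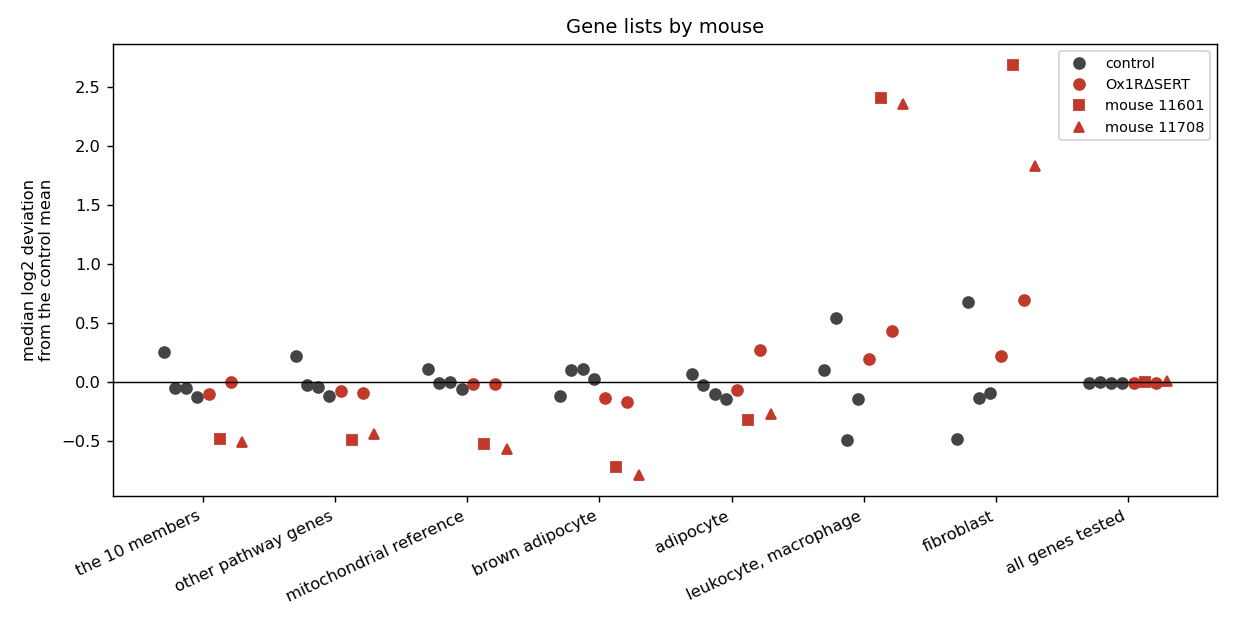
Median log2 deviation from the control mean over the genes of each list (vertical axis), with 1 point per mouse and 4 mice per group; squares and triangles are Ox1RΔSERT mice 11601 and 11708. The 10 members lie at −0.48 and −0.50 in these mice and between −0.12 and 0.25 in the other 6, while the leukocyte and macrophage markers lie at 2.41 and 2.36.

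No member passed an adjusted p of 0.05 (0 of 10, against 0% of the 14489 genes tested with edgeR). At an unadjusted p under 0.05, 2201 genes differed, or 15.2% of those tested. Of the members, 1 of 10 was lower in Ox1RΔSERT mice at that level, against 4.96% of all genes, and 0 of 10 were higher, against 10.2%. DESeq2 called 0 of 10 members, against 1.75% of its genes (265 of 15119, of which 233 were higher and 32 lower). The log2 fold change was below 0 for 10 of 10 members (49.6% of all genes), with a median of −0.27 against 0.0021 over all genes, but it was below 0 for 7 of 10 with plain library size scaling and for 2 of 10 on the log2(TPM + 1) scale, which move the median of all genes by 0.22 and 0.23. Relative to that median, all 10 were below 0 under both of these scalings as well, with medians of −0.29 and −0.15. Without mice 11601 and 11708 the median of the members was −0.071, and 8 of 10 were below 0. Without control mouse 10684, the highest of the 8 mice for 9 of 10 members (against 18.7% of all genes), the median was −0.14.

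**Figure D2:**
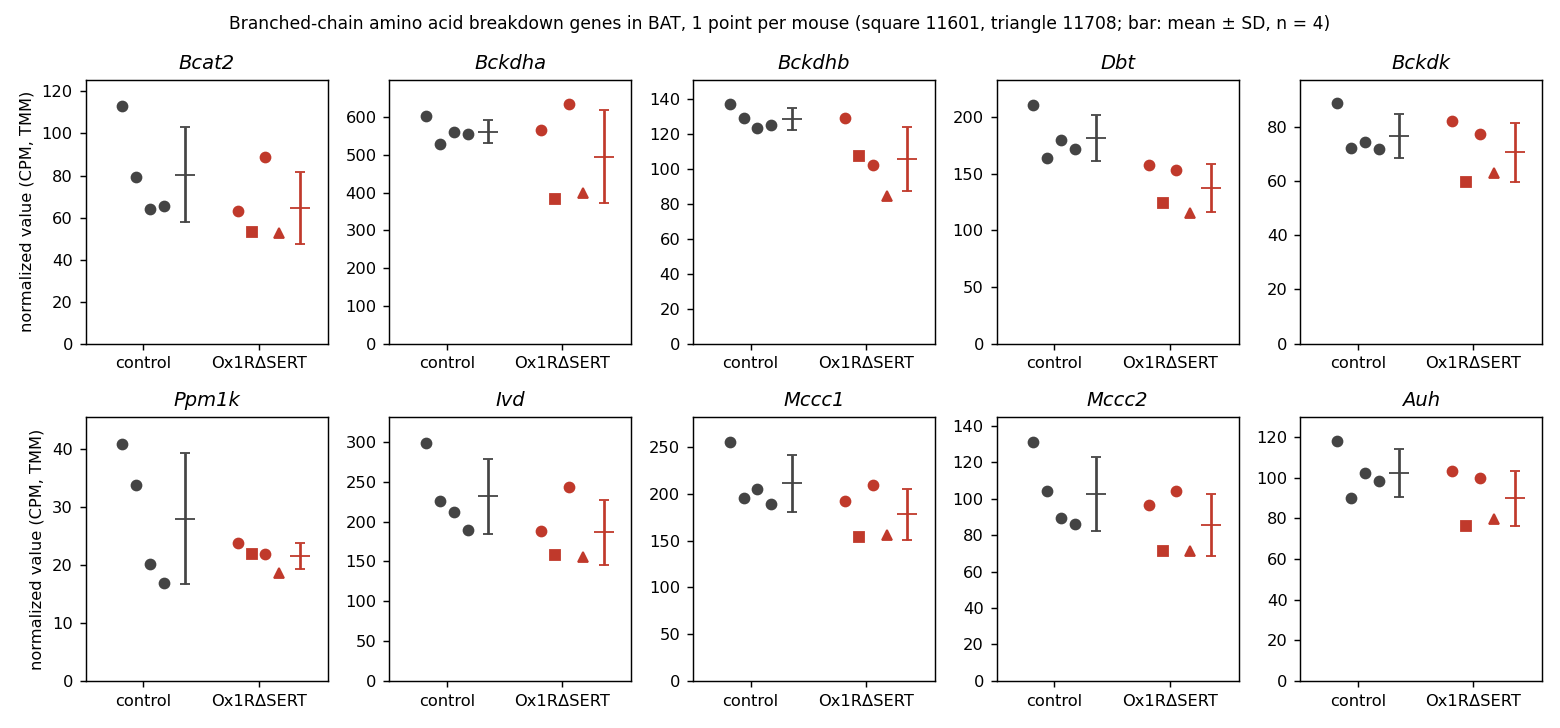
Normalized value of each member (vertical axis, CPM with TMM scaling, from 0) in 4 control and 4 Ox1RΔSERT mice, with 1 point per mouse and the mean ± SD beside the points; squares and triangles are mice 11601 and 11708. These mice are the 2 lowest of the 8 for 8 of 10 members, and the groups do not overlap for Dbt alone.

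The members covered a wide range of levels. In control mice Bckdha was the most abundant at 262 ± 24.1 TPM (SD, n = 4), which placed it at rank 226 of the genes tested, followed by Bckdhb at 103 ± 4.95 TPM. Auh (67 ± 10.5 TPM), Mccc1 (61.1 ± 11), Ivd (60.9 ± 13.4), Dbt (48.5 ± 8.13), Bckdk (43.1 ± 5.97), Mccc2 (39.1 ± 8.56) and Bcat2 (37.5 ± 10.9) formed the middle of the order. Ppm1k was far below the rest at 4.59 ± 1.94 TPM, with 42.1% of the genes tested above it. Mccc1 was above Ivd in 2 of 4 control and 3 of 4 Ox1RΔSERT mice, so these neighbours were not separated. Dbt was above Bckdk in 4 of 4 control mice and in 1 of 4 Ox1RΔSERT mice, and their ratio was not among those tested. Each of the other neighbours kept its order in 7 or 8 of the 8 mice. On the TPM scale the mean level of Bckdha in Ox1RΔSERT mice was 280 ± 41.3 and that of Bckdhb 105 ± 13.7. TPM values are shares of all transcripts, and the genes of the mitochondrial genome took 40%, 46.8%, 42.7% and 42.1% of the counts in control mice and 44.6%, 33.6%, 34% and 36.2% in Ox1RΔSERT mice.

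Bcat2 (chr7:45570153-45589711, forward strand in GRCm38) encodes the mitochondrial aminotransferase of the first step. Its normalized values were 113, 79.2, 63.9 and 65.7 in control mice and 63.2, 53, 89 and 52.5 in Ox1RΔSERT mice. The groups overlapped, with control mouse 10684 highest and Ox1RΔSERT mouse 11613 second. This gave a log2 fold change of −0.32 (SE 0.23, edgeR adjusted p = 0.506) and −0.072 without mice 11601 and 11708. Leaving out mouse 10684 alone gave −0.11, and 11613 alone −0.52. Bcat2 shares 622 exonic bases with an antisense gene that was not analysed here.

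Dbt (chr3:116513070-116549981, forward strand) encodes E2, the transacylase core of the dehydrogenase complex. It showed the clearest difference among the members. Its normalized values were 211, 164, 180 and 172 in control mice and 158, 124, 153 and 115 in Ox1RΔSERT mice. Every Ox1RΔSERT mouse lay below every control mouse, which held for 1 of 10 members against 2.81% of the genes tested, but the gap was narrow, from 158 to 164, and mice 11601 and 11708 were again lowest. The log2 fold change was −0.40 (SE 0.13, 95% confidence interval −0.70 to −0.10), with an unadjusted edgeR p of 0.0148 and an adjusted p of 0.316. An exact two-sided permutation test of the normalized values gave p = 0.0286, the smallest that 4 mice against 4 allow. This p-value follows from the lack of overlap and is not adjusted over the 10 members. The same permutation test gave 0.114 (Bckdhb) to 0.4 (Bckdha and Ppm1k) for the other members. Without mice 11601 and 11708 the log2 fold change was −0.22 (SE 0.12, edgeR adjusted p = 0.996). In TPM the groups overlapped, at 59.1, 39.2, 47.6 and 47.9 in control mice and 40.6, 47.6, 54.6 and 42.9 in Ox1RΔSERT mice.

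Bckdha (chr7:25629946-25658981, reverse strand) and Bckdhb (chr9:83925145-84124240, forward strand) encode the E1α and E1β subunits, which carry out the decarboxylation. Bckdha measured 604, 529, 560 and 554 normalized units in control mice and 565, 383, 634 and 399 in Ox1RΔSERT mice. The Ox1RΔSERT mice fell on both sides of the controls, mouse 11613 above all 4 and mice 11601 and 11708 below all 4. This left a log2 fold change of −0.18 (SE 0.17, edgeR adjusted p = 0.615), and without those 2 mice it was 0.098. The value was −0.078 without 11601 alone, −0.093 without 11708 alone and −0.33 without 11613. Bckdhb measured 137, 129, 123 and 125 in control mice and 129, 107, 102 and 84.3 in Ox1RΔSERT mice. Here 3 of 4 Ox1RΔSERT mice were below every control, mouse 11613 included, and the spread of the controls was small (SD 6.02). The log2 fold change of Bckdhb was −0.28 (SE 0.13, edgeR adjusted p = 0.339), −0.14 without mice 11601 and 11708 and −0.18 without 11708 alone. Bckdha shares 1171 exonic bases with B3gnt8 on the opposite strand; B3gnt8 had 6 to 41 estimated counts where Bckdha had at least 16683.

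Bckdk (chr7:127904082-127910221, forward strand) encodes the kinase that inactivates the complex. Its normalized values were 88.7, 72.1, 74.3 and 71.7 in control mice and 82.3, 59.8, 77.2 and 63.1 in Ox1RΔSERT mice, with mice 11601 and 11708 below all controls and the other 2 within their range. It had the smallest log2 fold change of the 10, −0.12 (SE 0.13, edgeR adjusted p = 0.658), and without those 2 mice the value was 0.062. It was −0.048 without 11601 alone, −0.069 without 11708 alone, −0.22 without 11243 and −0.045 without control mouse 10684. Ppm1k (chr6:57506502-57535468, reverse strand) encodes the phosphatase that reactivates the complex. It measured 41, 33.9, 20.2 and 17 in control mice and 23.9, 21.9, 21.9 and 18.6 in Ox1RΔSERT mice. All Ox1RΔSERT values lay inside the control range, with control mice 10684 and 11253 above them and the other 2 controls among or below them. The log2 fold change of Ppm1k was −0.38 (SE 0.26, edgeR adjusted p = 0.495), −0.28 without mice 11601 and 11708, −0.14 without control mouse 10684 and −0.56 without control mouse 11563.

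The leucine branch starts from isovaleryl-CoA. Ivd (chr2:118861954-118882909, forward strand) encodes the dehydrogenase that oxidizes it, Mccc1 (chr3:35959312-36000678, reverse strand) and Mccc2 (chr13:99948530-100015639, reverse strand) the biotin-carrying α and the β subunit of the carboxylase that follows, and Auh (chr13:52835119-52929681, reverse strand) the hydratase after that. Promoter sequences were looked up for the 9 of 10 members with an entry in the RefSeq table for GRCm38.p6, which has none for Dbt. The 250 bases before the start site were searched on both strands, with letters chosen after the sequences had been seen. The start site is that of RefSeq, which can differ from the gene positions given here. For this reason 40 bases of the window of Ivd, 220 of that of Bckdha and 4 of that of Auh lie inside the annotated gene. The CCAAT box (CCAAT, or ATTGG on the other strand) occurred in 6 of 9 member promoters, against 33.8% of 32851 promoters, and at least 2 times in 5 of 9, against 10.1%. Ivd held 4 matches, Mccc1 3 and Mccc2 3, which is why they are shown, each 5′ to 3′ on the strand of its gene with the matches in capitals. The window of Ivd is chr2:118861744-118861993 (forward strand), that of Mccc1 chr3:36000679-36000928 (reverse strand) and that of Mccc2 chr13:100015640-100015889 (reverse strand), where 2 of the matches overlap each other.
Ivd: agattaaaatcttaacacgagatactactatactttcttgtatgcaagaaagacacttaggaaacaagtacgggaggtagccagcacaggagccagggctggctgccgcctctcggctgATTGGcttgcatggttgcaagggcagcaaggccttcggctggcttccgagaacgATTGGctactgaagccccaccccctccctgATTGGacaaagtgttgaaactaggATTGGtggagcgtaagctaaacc
Mccc1: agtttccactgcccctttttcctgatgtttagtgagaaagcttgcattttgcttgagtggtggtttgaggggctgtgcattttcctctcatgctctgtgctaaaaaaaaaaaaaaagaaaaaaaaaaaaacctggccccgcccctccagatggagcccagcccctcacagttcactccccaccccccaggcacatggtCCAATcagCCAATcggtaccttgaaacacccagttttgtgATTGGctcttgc
Mccc2: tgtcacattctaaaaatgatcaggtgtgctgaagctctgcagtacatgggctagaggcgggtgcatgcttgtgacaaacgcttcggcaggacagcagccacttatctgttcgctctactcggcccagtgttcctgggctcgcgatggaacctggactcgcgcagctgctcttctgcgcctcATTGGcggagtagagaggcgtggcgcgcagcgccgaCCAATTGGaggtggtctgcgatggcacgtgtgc
The other members with matches were Bckdhb (2), Ppm1k (2) and Bckdk (1). Auh, Bckdha and Bcat2 held 0, and Bcat2 was the member most closely correlated with Ivd over the 8 mice. The GC box (GGGCGG or CCGCCC) was found in 4 of 9 member promoters, against 32.7% of all. The letters TGCGCA, the core of the NRF1 motif, and AAGGTCA or TGACCTT, the half-site of estrogen-related receptors, were in none of the 9, against 6.43% and 4.08% of all promoters. A match describes these letters only, and no binding was measured.

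Ivd measured 299, 226, 212 and 190 normalized units in control mice and 188, 158, 244 and 156 in Ox1RΔSERT mice. Mouse 11613 lay above 3 of the 4 controls, and the other 3 Ox1RΔSERT mice below all of them. For Ivd the log2 fold change was −0.31 (SE 0.19, edgeR adjusted p = 0.427), −0.095 without mice 11601 and 11708, −0.17 without control mouse 10684 and −0.47 without 11613. Mccc1 measured 256, 196, 205 and 189 in control mice and 192, 154, 210 and 156 in Ox1RΔSERT mice, and Mccc2 131, 104, 89.3 and 86.3 against 96.4, 71.1, 104 and 71.3. In both, mouse 10684 was highest, mice 11601 and 11708 were lowest and the other 2 Ox1RΔSERT mice lay within the control range. The log2 fold changes were −0.25 (SE 0.14) for Mccc1 and −0.26 (SE 0.18) for Mccc2, with edgeR adjusted p-values of 0.412 and 0.483, and −0.069 and −0.029 without those 2 mice. Without control mouse 10684 they were −0.15 and −0.12. Auh had the same highest and the same 2 lowest mice, at 118, 89.7, 102 and 98.4 in control mice and 103, 76.4, 100 and 79.6 in Ox1RΔSERT mice. Its log2 fold change was −0.18 (SE 0.13, edgeR adjusted p = 0.505) and −0.0019 without mice 11601 and 11708, with −0.11 without 11601 alone, −0.11 without control mouse 10684 and −0.28 without 11243. Exons of Mccc1 overlap 3 listed genes on the opposite strand, of which the most abundant, Mccc1os, had 10 to 43 estimated counts against at least 6192.

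Most members were lowest in the same mice. Mice 11601 and 11708 were the 2 lowest of the 8 for 8 of 10 members, against 15.3% of all genes tested. The exceptions were Bckdhb, where mouse 11613 was second lowest, and Ppm1k, where control mouse 11563 was lowest. Ox1RΔSERT mice 11243 and 11613, with median deviations of −0.099 and 0.0066 from the control mean, lay inside the range of the controls, −0.12 to 0.25. Over 8 mice, Bcat2 and Ivd were the most closely correlated pair of members (Pearson's r 0.976, and 0.964 over the 6 mice without 11601 and 11708). The lowest correlation over 8 mice was that of Bckdha and Ppm1k, at 0.328, and the r of this pair was 0.062 over 6. Bckdha and Bckdhb, whose products form 1 enzyme, had an r of 0.605 over 8 mice and −0.559 over 6.

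Ratios within a mouse do not depend on its scaling. The kinase to phosphatase ratio, Bckdk over Ppm1k, was 7.16, 7.69, 12 and 14.9 in TPM in control mice and 11.5, 9.03, 11.3 and 12.2 in Ox1RΔSERT mice. All Ox1RΔSERT values lay inside the control range, and an exact permutation test gave p = 0.714. Bckdha over Dbt differed most by this test, at 4.85, 5.83, 5.55 and 5.6 in control mice and 6.35, 5.42, 6.26 and 6.11 in Ox1RΔSERT mice. It was above every control in 3 of 4 Ox1RΔSERT mice, but did not pass (exact permutation p = 0.114, 0.5 after Benjamini-Hochberg adjustment over 5 ratios). The log2 difference between groups was 0.15, with 0.090 without control mouse 10684 and 0.21 without mice 11601 and 11708. Bckdk over Bckdha was 0.165 ± 0.0125 in control and 0.177 ± 0.0131 in Ox1RΔSERT mice (SD, n = 4, exact permutation p = 0.2). Its log2 difference of 0.10 was 0.021 without mice 11601 and 11708, 0.060 without 11708 alone and 0.058 without control mouse 11560. Bckdha over Bckdhb was 2.55 ± 0.175 and 2.69 ± 0.522, and Mccc1 over Mccc2 1.57 ± 0.143 and 1.6 ± 0.0761 (exact permutation p = 0.686 and 0.714). The direction of Bckdk over Ppm1k, Bckdha over Bckdhb and Mccc1 over Mccc2 changed when single mice were left out.

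**Figure D3:**
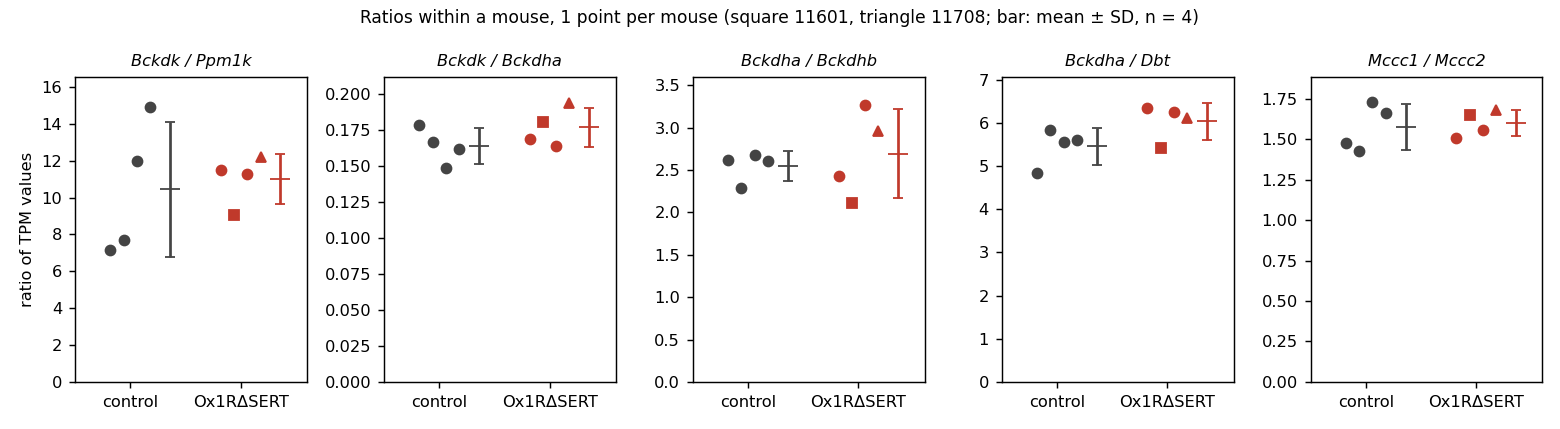
Ratio of TPM values of 2 members within each mouse (vertical axes, from 0), with 1 point per mouse, 4 per group, and the mean ± SD beside the points; squares and triangles are mice 11601 and 11708. The groups overlap in all 5 ratios, and 3 of 4 Ox1RΔSERT mice are above every control for Bckdha over Dbt.

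The rest of the pathway is described by 24 other genes. Of these 24, carriers included, 0 passed an adjusted p of 0.05 with edgeR, 7 were lower and 2 higher at an unadjusted p under 0.05 (4.96% and 10.2% of all genes), and 4 were lower without overlap between groups (2.81% of all genes). Their median log2 fold change was −0.27, with 20 of 24 below 0, and −0.061 without mice 11601 and 11708, with 18 of 24 below 0 (7554 of all 14489 genes) and 1 gene at an unadjusted p under 0.05 (402 of 14489). Relative to all genes the median of the 24 was −0.27, and −0.16 on the log2(TPM + 1) scale. Dld, the E3 subunit shared with other dehydrogenase complexes, fell among the lower genes at −0.35 (SE 0.13), and Bcat1, the cytosolic aminotransferase, among the higher at 0.98 (SE 0.37), with edgeR adjusted p = 0.316 for both. Bcat1 was low, at a mean of 7.11 normalized units in control and 14 in Ox1RΔSERT mice, and without mice 11601 and 11708 its log2 fold change was 0.18 and that of Dld −0.20. At the end of the leucine branch, Oxct1, which activates acetoacetate for use as fuel, averaged 462 ± 52 in control and 325 ± 59.9 in Ox1RΔSERT mice (SD, n = 4) without overlap. Its log2 fold change was −0.51 (SE 0.15, edgeR adjusted p = 0.316) and −0.30 without those 2 mice.

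In the isoleucine and valine branch 8 of 9 genes had a log2 fold change below 0, and the median was −0.28. Without mice 11601 and 11708 it was −0.06, with 9 of 9 below 0. With all 8 mice it was −0.18 relative to all genes on the log2(TPM + 1) scale. Acadsb, the short branched-chain acyl-CoA dehydrogenase, and Hibadh, a dehydrogenase of the valine branch, did not overlap between groups. Acadsb ranged from 181 to 200 normalized units in control and from 137 to 172 in Ox1RΔSERT mice, with a log2 fold change of −0.28 (SE 0.11), and Hibadh from 395 to 482 and from 283 to 391, with −0.35 (SE 0.13). Without mice 11601 and 11708 the values were −0.12 and −0.17. In the route from propionyl-CoA to succinyl-CoA 6 of 6 genes were below 0, and 4 of 6 without those 2 mice. Mcee, the epimerase of this route, ranged from 81.3 to 95.6 in control and from 49.5 to 78.5 in Ox1RΔSERT mice. With a log2 fold change of −0.48 (SE 0.14, edgeR adjusted p = 0.316) it was also the 1 gene of the 24 to reach an unadjusted p under 0.05 without mice 11601 and 11708, at −0.34. Mut, the mutase of the last step, had −0.32 (SE 0.14, edgeR adjusted p = 0.328), and −0.17 without those 2 mice.

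Among 6 carriers, Slc7a5, a transporter of large neutral amino acids at the cell surface, had the largest difference, with a log2 fold change of 1.52 (SE 0.50, edgeR adjusted p = 0.316). It was close to absent, at a mean of 1.06 normalized units in control and 3.06 in Ox1RΔSERT mice, and the value was 0.31 without mice 11601 and 11708. Slc7a8, another transporter of this kind, had −0.80 (SE 0.35) and −0.56 without them. Slc25a44, the mitochondrial carrier named for its role in BAT, averaged 82.3 ± 15.2 in control and 72.8 ± 11.5 in Ox1RΔSERT mice (SD, n = 4), a log2 fold change of −0.18 (SE 0.16, edgeR adjusted p = 0.586) that was 0.013 without mice 11601 and 11708.

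**Figure D4:**
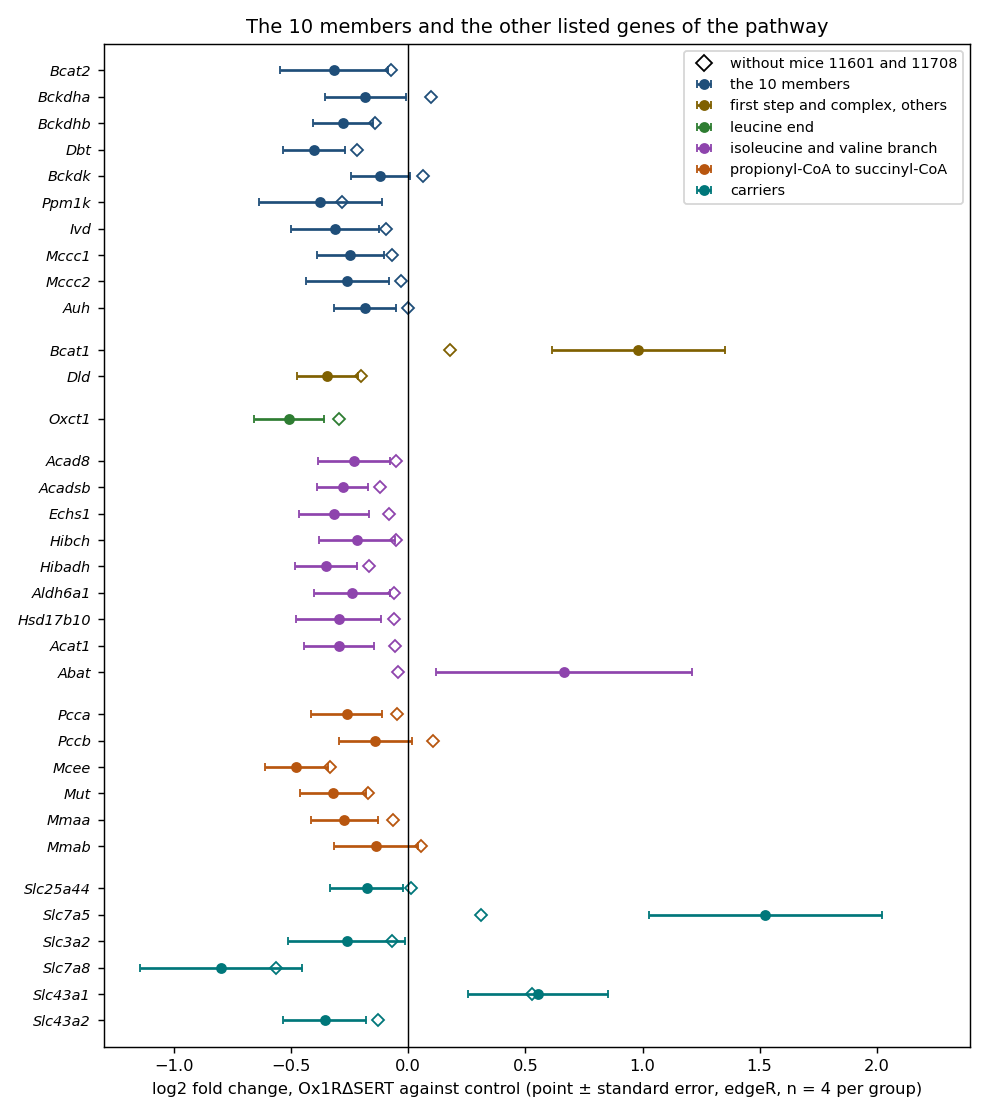
Log2 fold change, Ox1RΔSERT against control (horizontal axis), of the 10 members and 24 other genes of the pathway; filled points with bars are the estimate ± SE over 4 mice per group, and open diamonds the estimate without mice 11601 and 11708. The filled points of all 10 members and of 20 of the 24 other genes are below 0, and the members' median is −0.27 with all mice and −0.071 without those 2.

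The same direction was seen outside the pathway. Among 8 mitochondrial reference genes, 8 had a log2 fold change below 0 and the median was −0.25, or −0.009 with 5 of 8 below 0 without mice 11601 and 11708. Relative to all genes this median was −0.26, and with 1 mouse left out it ranged from −0.34 (without 11613 or 11243) to −0.17 without 11601 and −0.16 without 11708. Uqcrc2, a core subunit of respiratory complex III, and Sdhb, the iron-sulfur subunit of complex II, did not overlap between groups, at −0.38 (SE 0.14) and −0.37 (SE 0.15), and Tomm20, a receptor for protein import, was at −0.28 (SE 0.12), with edgeR adjusted p-values of 0.316, 0.324 and 0.325. Without mice 11601 and 11708 these values were −0.20, −0.13 and −0.17. Set against the mean of these genes in the same mouse, an alternative added after the data were seen, 5 members were lower and 5 higher, with a median of −0.0074. On that scale Dbt was at −0.14 (exact permutation p = 0.0571) and Bckdk at 0.14 (exact permutation p = 0.114). These were the 2 members with the lowest p-values by this test, which are not adjusted over the 10 members. The next lowest was that of Auh (exact permutation p = 0.343). The 12 genes of the related pyruvate and 2-oxoglutarate dehydrogenase complexes and their kinases and phosphatases had a median of −0.11, and 0.0056 without those 2 mice. Relative to all genes it was −0.11, with −0.20 without 11243 or 11613, −0.065 without 11601, −0.053 without 11708 and −0.013 on the log2(TPM + 1) scale. Pdp2, a pyruvate dehydrogenase phosphatase, had −0.50 (SE 0.18, edgeR adjusted p = 0.316), and −0.22 without them. Of 7 genes known as regulators of the pathway or of oxidative metabolism, 0 reached an unadjusted p under 0.05 (15.2% of all genes), and their median was −0.079, or 0.07 without mice 11601 and 11708. Relative to all genes it was −0.081, with −0.15 without 11613, −0.14 without 11708 or control mouse 11253, −0.039 without 11601, −0.025 without control mouse 11560 and −0.015 on the log2(TPM + 1) scale. The most abundant, Pparg and Mlxipl, had −0.033 (SE 0.13) and 0.02 (SE 0.26).

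The genes whose pattern over the 8 mice was most like the mean of the members were Fxyd1 (Pearson's r 0.992), Foxred1 (0.991), Letm1 (0.988), Dlst (0.986) and Coq9 (0.983), out of 7351 genes compared. Over the 6 mice without 11601 and 11708 the r values were 0.948, 0.976, 0.961, 0.965 and 0.952. Of the 7351 genes, 314 had an r above 0.9 over the 8 mice.

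Markers of some other cell types, leukocytes and fibroblasts among them, were high in the mice with low member values, and others were not. Of 8 leukocyte and macrophage markers, 8 had a log2 fold change above 0, with a median of 1.64 and 0.27 without mice 11601 and 11708. For the 4 fibroblast markers the medians were 1.65 and 0.49. Hepatocyte markers, mostly Alb, summed to 672 normalized units in mouse 11708 and to between 1.91 and 46.3 in the others, and the 10 skeletal muscle markers, led by Myh4, to 2370 in mouse 11708, 1730 in control mouse 11253, 189 in mouse 11601 and at most 44.5 in the remaining 5. The brown adipocyte markers had a median of −0.46, with 8 of 8 below 0, and −0.24 without mice 11601 and 11708, with 6 of 8 below 0. The 5 general adipocyte markers had a median of −0.033, the 4 endothelial markers −0.017, the 3 Schwann cell markers −0.51 and the 4 erythroid markers −0.32, and without those 2 mice the medians were 0.16, 0.036, −0.17 and 0.13. Pparg is among the general adipocyte markers and Ppargc1a among the brown adipocyte markers, and both are also counted among the regulators. Lymphocyte markers summed to at most 0.789, and 1 of 4 was abundant enough to test. With the genes of the mitochondrial genome left out, the median of the members was −0.27, with 10 of 10 below 0. The part of these cell types in the members' values was not tested.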

How the data were processed

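BAT of 4 control and 4 Ox1RΔSERT mice was sequenced as poly-A RNA from stranded libraries, 1 library per mouse. The authors quantified genes with Salmon 0.14.1 on GRCm38 (GRCm38.p6, with STAR also named, in the submitters' processing notes) and deposited estimated counts and, separately, TPM values per gene and mouse. The annotation release, and whether strand was used, are not given in the sources used here. How reads in bases shared by a gene and an antisense partner were assigned is therefore not known. The partner counts given above set no limit on the partner's share of such reads. Symbols and positions came from GENCODE mouse M21.

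Estimated counts were rounded and tested with edgeR 4.0.16 in R 4.3.3 (filterByExpr, TMM, glmQLFit and glmQLFTest, two-sided, Benjamini-Hochberg over 14489 genes, threshold 0.05). The test was first checked on simulated counts of 14419 genes, all given 1 common dispersion (0.0988), with no mice that stood apart. There it called 29.6% of genes changed by 1 log2 unit, 98% of those changed by 2, and 5 unchanged genes. Real genes differ in dispersion and 2 real mice stood apart, so these shares cannot be carried over to this series. Changes below 1 log2 unit, such as those of the members, were not simulated. DESeq2 1.42.0, limma 3.58.1 (voom, and trend on log2 TPM plus a pseudocount of 0.1 or 1), other scalings and filters, an offset for effective length and each mouse left out were alternatives. Single values and ratios were tested with exact two-sided permutation over 70 assignments. The members and lists were chosen with earlier results of these data known, and 1 listed gene is not reported here. From each gene list other than the cell type markers, which are given by sums and medians, genes at an unadjusted p under 0.05 or without overlap were named, up to 4 by lowest p, otherwise the 2 most abundant. Slc25a44 was named in addition, for its known role in BAT. The most alike genes were the 5 with the highest Pearson correlation with the mean z-score of the members, among tested genes with a mean normalized value of at least 10. Motifs were counted in RefSeq promoters.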

Additional observations from a re-analysis of the deposited data

Results flagged for a closer look

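Of 30 groups of values checked for a mouse far from the others of its group (each member and ratio in each genotype), 1 passed the limit of Dixon's test for 4 values. It was Bckdk in control mouse 10684, at 88.7 normalized units, where the next control was at 74.3, and the gap took 0.849 of the range of the group. Chance passes this limit in about 1 of 20 groups. Without this mouse the log2 fold change of Bckdk was −0.045 in place of −0.12.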

How the results depend on the processing

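No member passed an adjusted p of 0.05 under any alternative. DESeq2 called 265 genes where edgeR called 0. At an unadjusted p under 0.05, edgeR gave 2201 genes with all mice, 1018 to 3331 with 1 mouse left out (1018 without control mouse 11560, 1032 without Ox1RΔSERT mouse 11708, 1108 without 11601, 1348 without control mouse 11563, 2819 without Ox1RΔSERT mouse 11613 and 3331 without 11243) and 424 without both mice 11601 and 11708. The number of members lower at that level was 1 with all mice (4.96% of all genes), 2 with limma voom (5.17%), 0 with library size scaling (0.607%), 0 on both log2 TPM scales (0.242% and 0.228%), 1 to 4 with 1 mouse left out (4 without Ox1RΔSERT mouse 11613, against 5.97% of all genes, 2 without 11243, against 8.5%, 2 without control mouse 11563, against 2.72%, and 1 without each of the others, against 2.02% to 6.54%) and 0 without mice 11601 and 11708 (1.2%). The median of the members relative to all genes was −0.27, between −0.35 and −0.16 with 1 mouse left out, and −0.059 without mice 11601 and 11708. The log2 fold changes of Bckdha and Bckdk turned to 0.098 and 0.062 without those 2 mice, and relative to the mitochondrial reference genes Bckdha was at 0.053, Bckdk at 0.14, Mccc1 at 0.018, Mccc2 at 0.0071 and Auh at 0.078. With 1 mouse left out, the log2 ratio between groups ranged from −0.024 to 0.33 for Bckdk over Ppm1k (lowest without control mouse 10684), from −0.040 to 0.17 for Bckdha over Bckdhb (lowest without Ox1RΔSERT mouse 11613) and from −0.021 to 0.071 for Mccc1 over Mccc2, which was at −0.021 without control mouse 11253, at −0.0026 without 10684 and at −0.032 without mice 11601 and 11708. The cause of these changes was not tested. Without those 2 mice, 2 Ox1RΔSERT mice remain, and the fit then rests on 6 libraries. For Dbt the log2 fold change stayed below 0 under the alternatives run, with edgeR adjusted p-values from 0.131 to 0.645 with 1 mouse left out, but it was −0.20 with library size scaling and −0.055 on the log2(TPM + 1) scale before the shift of all genes is taken off. Per mouse, 3 counts come to 0.0592 to 0.0951 normalized units, and the lowest member value was 17, for Ppm1k.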
